A study of Mus musculus with 3 samples.

Results

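Expression of 10 genes of the fibroblast growth factor (FGF) system was examined in dorsal skin of 4-day-old mice. The genes are the ligands Fgf2, Fgf5, Fgf7, Fgf10 and Fgf18, the receptors Fgfr1, Fgfr2, Fgfr3 and Fgfrl1, and the FGF-binding protein Fgfbp1. Members were taken as the probe sets that the platform annotation pairs with exactly 1 of these symbols. This gave 18 of 45101 probe sets, at least 1 for each of the 10 genes. The uncv null group held 2 mice homozygous for the uncovered (uncv) mutation, each hybridised to its own array, and the wild type group held 1 mouse. All 3 were female, of the BALB/cA strain, 4 days old, and sisters born to parents heterozygous for uncv. Uncovered is a spontaneous mutation that leaves mice with little or no hair and has been mapped to Rhbdf2. The genotypes can be told apart by whiskers or by PCR, per the design text, and the mutation is carried by every tissue of the null animals. With 1 wild type array, every difference given here rests on that single animal.

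FGFs are secreted proteins that bind tyrosine kinase receptors together with heparan sulphate, the sulphated sugar chains of the cell surface and matrix. In skin the exchange runs largely between layers. Fibroblasts and dermal papilla cells make Fgf7 and Fgf10, which act on the epithelial form of Fgfr2 in keratinocytes, while Fgf5 ends the growth phase of hair and Fgf18 is known from resting follicles. Fgfbp1 is secreted by keratinocytes and releases matrix-bound FGFs, and Fgfrl1 binds FGFs but lacks the kinase domain.

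The promoters of Fgfbp1 and Fgfrl1 are shown because, of the 6 members bright enough to be tested, these were the ones that the uncv null arrays both placed higher (Fgfbp1) or both placed lower (Fgfrl1) than wild type. Each window is 300 bases of RefSeq on GRCm38.p6, with 250 bases before the annotated start, 5′ to 3′ on the gene's strand. Capitals mark matches, on either strand, to the TATA box letters TATAAA, the AP-1 motif TGANTCA, the GC box GGGCGG, the CCAAT box, and the ETS factor core with flanks CCGGAAG. AP-1 sites are known to drive the human gene FGFBP1 in squamous carcinoma cells, and ETS factors act downstream of FGF receptors. Fgfbp1 lies at chr5:43981750-43982049, minus strand, and Fgfrl1 at chr5:108693979-108694278, plus strand.
Fgfbp1: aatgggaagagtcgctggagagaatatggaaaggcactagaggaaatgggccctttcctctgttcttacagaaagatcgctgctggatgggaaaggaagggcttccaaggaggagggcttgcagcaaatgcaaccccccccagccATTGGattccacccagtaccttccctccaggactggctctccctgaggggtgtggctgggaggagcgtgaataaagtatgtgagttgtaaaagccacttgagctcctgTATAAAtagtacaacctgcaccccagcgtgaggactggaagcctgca
Fgfrl1: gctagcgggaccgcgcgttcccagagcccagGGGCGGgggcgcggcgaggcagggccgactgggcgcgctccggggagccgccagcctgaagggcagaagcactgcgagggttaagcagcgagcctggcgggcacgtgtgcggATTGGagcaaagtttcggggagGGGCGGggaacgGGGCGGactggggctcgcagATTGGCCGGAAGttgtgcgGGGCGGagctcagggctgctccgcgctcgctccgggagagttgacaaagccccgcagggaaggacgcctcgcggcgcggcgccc

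The Fgfbp1 window held 1 TATAAA, whose first base is base 4 after the annotated start, and 1 CCAAT on the opposite strand, at base -105. TATAAA occurred in 13.6% and CCAAT in 37.4% of all 32851 promoter windows of this length. TGANTCA, found in 7.81% of windows, was not among the letters of either promoter shown. The Fgfrl1 window held 4 matches to GGGCGG, which 35.7% of windows carried. It also held 2 to CCAAT, and 1 to CCGGAAG, which 8.86% of windows carried and which here directly follows one of the CCAAT matches. The windows differed in base composition. GC content was 53.3% for Fgfbp1 and 73.7% for Fgfrl1, against a median of 52.7% over all windows, and CpG pairs numbered 4 and 37, against a median of 7. Promoter windows were found for 9 of the 10 genes, and Fgfr1 had none in the table used.

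Expression is given as log2 RMA values, in which 1 unit is a 2-fold difference. The levels of different probe sets cannot be set against each other, since each has its own probes. Testing was limited to probe sets averaging at least 5 across the arrays, which held 9 of the 18 member probe sets and 6 of the 10 genes: Fgf7, Fgfr1, Fgfr2, Fgfr3, Fgfrl1 and Fgfbp1. Genes with a tested probe set are called measured. The brightest probe set of a gene, by mean, stands for it and is called its representative. Differences are uncv null minus wild type, tested with limma over all 13559 tested probe sets, and each error is limma's moderated SE. Of the 6 genes 0 passed (limma adjusted p = 0.9996 for each), and 0% of all 8456 tested genes did. At an unadjusted p under 0.05, limma counted 1 of the 6 members and 245 of the 8456 genes.

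**Figure D1:**
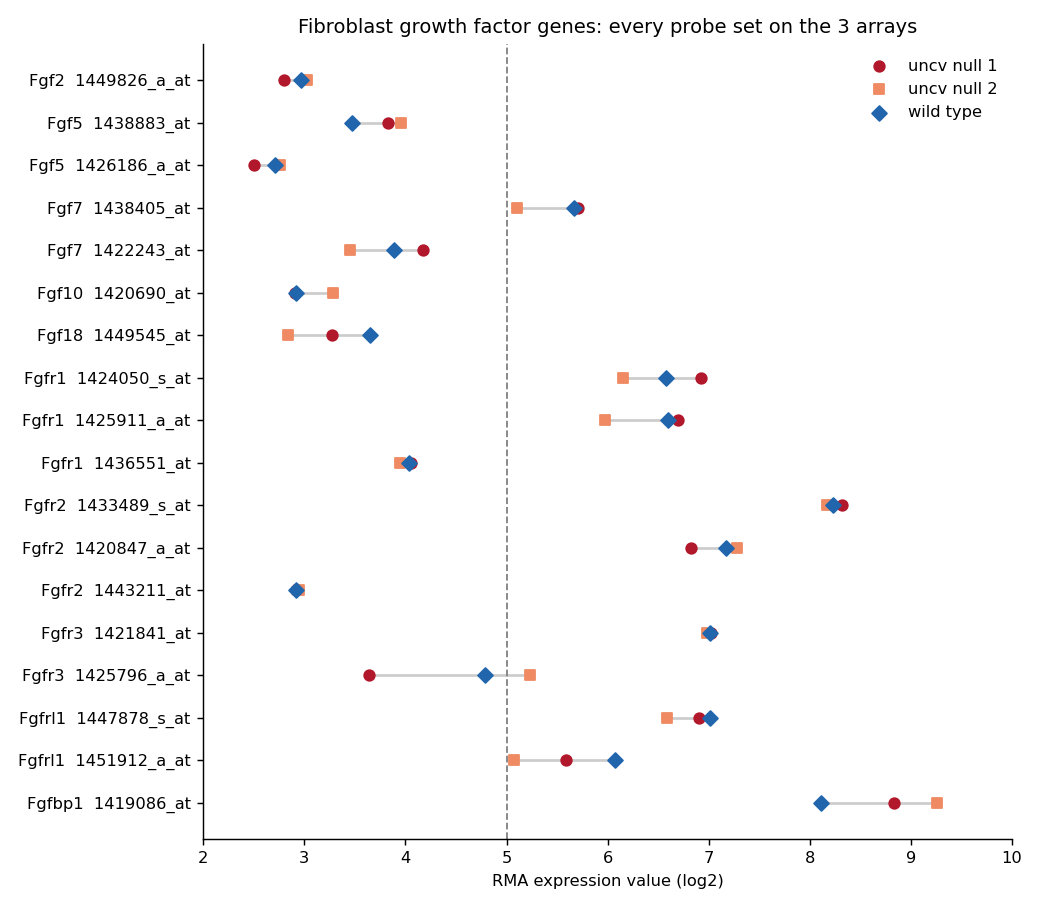
Log2 expression values (horizontal axis) of all 18 probe sets of the 10 genes, with a circle for uncv null 1, a square for uncv null 2 and a diamond for wild type. The dashed line marks 5, the minimum mean for testing. Fgfbp1 is the tested gene in which both uncv null arrays lie above wild type, and in both tested Fgfrl1 probe sets both lie below it.

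Fgfbp1 was the one measured member that both uncv null arrays placed higher than wild type. Its probe set 1419086_at read 8.84 in uncv null 1 and 9.26 in uncv null 2, against 8.11 in wild type. Both uncv null values were higher than the wild type value, and the gap between them, 0.42, was smaller than either distance from wild type. These distances were 0.73 (1.65-fold) and 1.15 (2.22-fold), and their mean was 0.94 ± 0.30 (1.91-fold, 95% interval 0.20 to 1.67), which did not pass the test. Of the 8456 tested genes, 66 had a higher mean difference. A rule of size, both uncv null arrays at least 1.5-fold above wild type, took in Fgfbp1, as it took in 1.49% of all tested genes. The 2-fold rule took in 0 members in either direction, beside 0.225% of tested genes higher and 0.296% lower.

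Measures that could move with the Fgfbp1 value were read beside it. The 4 hybridisation spike-ins at 7 to 10 in wild type, which are added to the sample and are not skin transcripts, differed from wild type by 0.64 to 0.74 in uncv null 1 and by 0.31 to 0.46 in uncv null 2. The Fgfbp1 difference lay within that range in uncv null 1 and above it in uncv null 2. The median difference of all tested genes was 0.025 and 0.066. The 6 keratinocyte markers had median differences of 0.020 and 0.23. Their 2 farthest from wild type were Itga6, an integrin of basal cells, at 0.39 and 0.45, and the basal keratin Krt14 at 0.088 and 0.54. Fgfbp1 lay higher than each of them in both arrays. Uncv null 1 also had the highest 18S ribosomal RNA probe sets, at 7.93, beside 4.26 in uncv null 2 and 3.59 in wild type. Its excess of the 3′ over the 5′ Actb control probe set was 1.23, beside 0.79 in uncv null 2 and 0.66 in wild type. The parts of the spike-in offset and of RNA quality in the Fgfbp1 value were not tested.

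Fgfrl1, the receptor without a kinase, was the one measured member below wild type in both uncv null arrays. Its representative probe set 1447878_s_at read 6.90 in uncv null 1 and 6.58 in uncv null 2, against 7.02 in wild type. Its other tested probe set, 1451912_a_at, read 5.59 and 5.07 in the uncv null arrays, against 6.08 in wild type. In both probe sets wild type was highest and uncv null 2 lowest. The mean differences were -0.27 ± 0.28 (95% interval -0.97 to 0.42) and -0.75 ± 0.32 (95% interval -1.53 to 0.038). The size of the difference therefore depended on the probe set, and neither passed the test. Without uncv null 2 the representative difference was -0.11, and without uncv null 1 it was -0.43.

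Counted by side, 1 of the 6 measured members was higher than wild type on both uncv null arrays, 1 was lower on both, and 4 were split. Over all tested genes, 38.8% lay above and 26.4% below in both. At the smaller size of 1.5-fold, 0 members were lower, beside 1.35% of tested genes. Over the 6 members the median difference of uncv null 1 was 0.062 and that of uncv null 2 was -0.24, beside 0.025 and 0.066 over all tested genes. By single arrays, 5 of the 6 members lay above wild type in uncv null 1, and 5 lay below it in uncv null 2. The shares of all tested genes by single array are not given here. The members therefore showed no direction shared by both uncv null arrays.

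**Figure D2:**
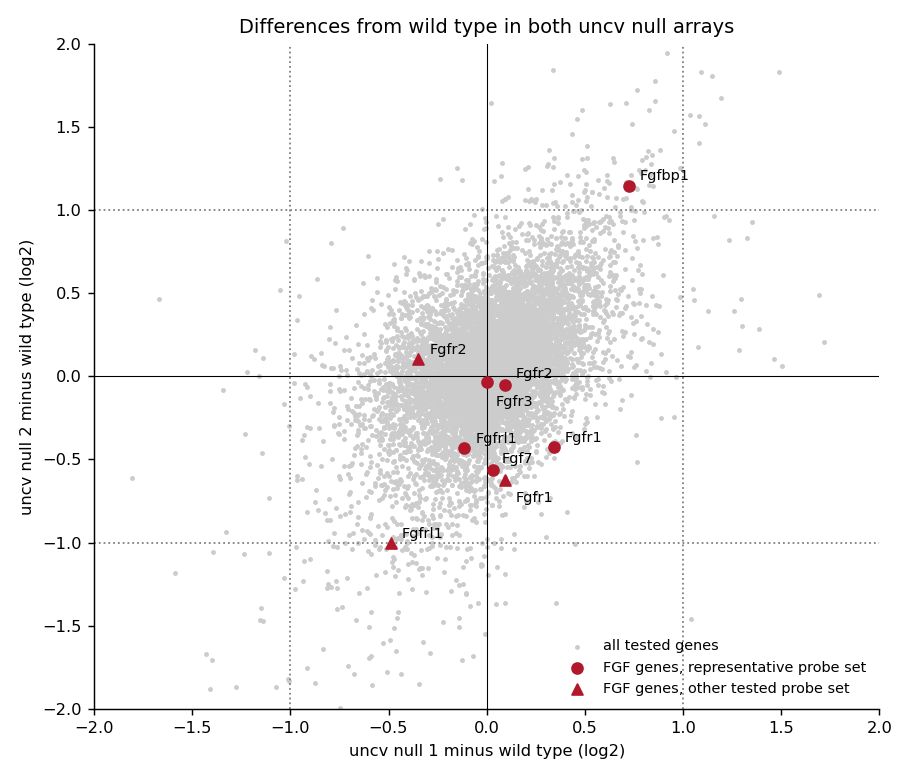
Difference from wild type in uncv null 1 (horizontal) and uncv null 2 (vertical), in log2 units, for all tested genes (grey) and for the tested FGF probe sets (red, circles for representative and triangles for other probe sets). Dotted lines mark 2-fold, and 44 genes lie outside the plotted range. Fgfbp1 is at 0.73 and 1.15, while the receptors and Fgf7 lie among the bulk of genes or below it in uncv null 2. Because both axes subtract the same wild type array, the cloud leans along the diagonal.

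Among the ligands, Fgf7, the keratinocyte growth factor of the dermis, was the one measured. Its representative probe set 1438405_at read 5.70 in uncv null 1 and 5.11 in uncv null 2, against 5.67 in wild type. Uncv null 1 was level with wild type and uncv null 2 was lower. Its dimmer probe set 1422243_at, below the filter, read 4.18 and 3.45 in the uncv null arrays, against 3.89 in wild type, with uncv null 2 again lowest. The mean difference was -0.27 ± 0.33 (95% interval -1.09 to 0.56) and rested on uncv null 2, since it was 0.030 without that array.

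The other ligands were close to the background of the arrays. In these female mice the highest of 9 probe sets for Y-linked genes read 3.48 in uncv null 1, 3.50 in uncv null 2 and 3.65 in wild type, which gives a level reached without a transcript. Fgf10, the other dermal ligand of the epithelial Fgfr2 form, read 2.91 and 3.28 in the uncv null arrays, against 2.91 in wild type. Fgf2, a mitogen of many cell types, read 2.80 and 3.03, against 2.96 in wild type. Fgf18 read 3.27 and 2.84, against 3.65 in wild type. These 3 genes lay at or below the Y-linked level on every array, so no fold is given. Fgf5 read 3.83 and 3.95 in the uncv null arrays, against 3.47 in wild type, by probe set 1438883_at, and 2.50 and 2.76, against 2.71 in wild type, by 1426186_a_at. The first of these stood above the Y-linked level in both uncv null arrays and below it in wild type, the second below it throughout, and neither was tested. The median of all 45101 probe sets was 3.70 in uncv null 1, 3.65 in uncv null 2 and 3.70 in wild type, near the brighter Fgf5 values. Differences in Fgf2, Fgf10 and Fgf18 were not measurable on these arrays, and that in Fgf5 rests on values near background. The transcripts of these ligands are not shown to be absent.

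Fgfr1, the receptor of dermal and other mesenchymal cells, differed between the uncv null arrays. Probe set 1424050_s_at read 6.92 in uncv null 1 and 6.16 in uncv null 2, against 6.58 in wild type. Probe set 1425911_a_at read 6.69 and 5.98 in the uncv null arrays, against 6.60 in wild type. In both, uncv null 1 was highest and uncv null 2 lowest, so wild type lay between the uncv null animals. The mean differences were -0.042 ± 0.38 (95% interval -0.97 to 0.89) and -0.26 ± 0.36 (95% interval -1.17 to 0.64). The dimmest, 1436551_at, read 4.05 and 3.94 in the uncv null arrays, against 4.03 in wild type, and was below the filter.

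Fgfr2, whose epithelial form receives Fgf7 and Fgf10, stayed near wild type by its representative probe set 1433489_s_at. This read 8.32 in uncv null 1 and 8.17 in uncv null 2, against 8.23 in wild type, a mean difference of 0.020 ± 0.26 with a 95% interval of -0.63 to 0.67. Probe set 1420847_a_at read 6.83 and 7.28 in the uncv null arrays, against 7.17 in wild type, with uncv null 1 lowest. Its mean difference was -0.12 ± 0.30. The dimmest, 1443211_at, read 2.92 and 2.95, against 2.92 in wild type, which is below the Y-linked level. The annotation does not say which splice form each probe set reads, so the epithelial and mesenchymal forms were not separated.

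Fgfr3, a receptor of the epidermis in which activating changes cause benign epidermal growths in humans, gave different pictures by probe set. Probe set 1421841_at read 7.02 in uncv null 1 and 6.98 in uncv null 2, against 7.02 in wild type, and its mean difference of -0.018 ± 0.26 (95% interval -0.65 to 0.62) was the smallest in size of the 6 genes by their representatives. With the mean of its probe sets the difference was -0.18. Probe set 1425796_a_at read 3.64 and 5.23 in the uncv null arrays, against 4.79 in wild type, and had a mean below the filter. There uncv null 1 lay 1.15 below wild type and uncv null 2 lay 0.45 above it. The uncv null arrays thus stood on opposite sides of wild type for this probe set, with a wider gap between them, 1.59, than in any other of the 18. Uncv null 1 was also the array with the highest 18S ribosomal RNA probe sets, at 7.93, beside 4.26 in uncv null 2 and 3.59 in wild type, and with the largest excess of the 3′ over the 5′ Actb control probe set, at 1.23, beside 0.79 in uncv null 2 and 0.66 in wild type. The part of RNA quality in the Fgfr3 value was not tested.

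Dermal markers were read beside the members lower in uncv null 2. Both differences subtract the same wild type array, and 26.4% of all tested genes lay below and 38.8% above in both. All 6 fibroblast markers lay below wild type in both uncv null arrays, with median differences of -0.089 in uncv null 1 and -0.43 in uncv null 2. Their summed level, the log2 of the sum of linear values, was 14.30 and 13.96 in the uncv null arrays, against 14.39 in wild type. Col1a1 was at -0.13 and -0.67 and Lum at -0.23 and -0.49. Of 5 measured dermal papilla markers, 4 lay below wild type in both arrays, with medians of -0.22 and -0.34 and a summed level of 9.79 and 9.52 in the uncv null arrays, against 10.08 in wild type. Trps1 was at -0.60 and -0.95, Prom1 at 0.36 and 1.03, and Sox2 and Rspo3 were below the filter. In uncv null 2, Fgf7 at -0.56, Fgfr1 at -0.42 and Fgfrl1 at -0.43 lay near the fibroblast median of -0.43 by their representatives. In uncv null 1 these representatives were at 0.030, 0.34 and -0.11. The other tested probe sets of the 2 receptors lay farther below wild type in uncv null 2. Fgfr1 was at -0.62 by 1425911_a_at, within the range of the fibroblast markers. Fgfrl1 by 1451912_a_at read 5.07 against 6.08 in wild type, a larger gap than for any fibroblast marker. In whole skin, fewer cells of a type and less RNA per cell cannot be told apart, and the part of dermal content in these values was not tested.

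Markers of other cells in whole skin also lay away from wild type. Their counts by side are read beside the same shares of all tested genes, 38.8% above and 26.4% below in both arrays. The 7 skeletal muscle markers were all lower in both uncv null arrays, with medians of -0.80 and -0.86 and a summed level of 13.32 and 13.16, against 13.88 in wild type. Actc1 was at -1.32 and -2.85 and Tnni1 at -1.73 and -2.27. The 5 adipocyte markers were all higher, with medians of 0.50 and 1.12 and a summed level of 11.84 and 12.16, against 11.55 in wild type. Retn was at 0.75 and 2.53 and Cidec at 0.49 and 1.60. Of 5 leukocyte markers 3 were higher in both arrays and 0 lower, with medians of 0.16 and 0.60, Ptprc at 0.47 and 1.06 and Lyz2 at 0.25 and 1.05. Outer root sheath and bulge markers had medians of -0.082 and 0.66, with Krt75 at 0.36 and 0.96 and Cd34 at -0.32 and -0.92. Hair matrix markers had medians of -0.17 and 0.19, with Foxn1 at 0.15 and 0.50 and Hoxc13 at -0.048 and -0.057. Endothelial medians were -0.095 and -0.31, with Emcn at -0.90 and -0.53 and Kdr at 0.22 and -0.52, and the 2 measured Schwann cell markers, Pmp22 and Sox10, were at -0.44 and -0.89 and at 0.025 and -0.54. The summed levels of these 5 lists differed from wild type by -0.40 to 0.12 in uncv null 1 and by -0.86 to 0.26 in uncv null 2, with the Schwann cell list lowest in both. Keratinocyte markers summed to 14.20 and 14.45 in the uncv null arrays, against 14.25 in wild type.

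**Figure D3:**
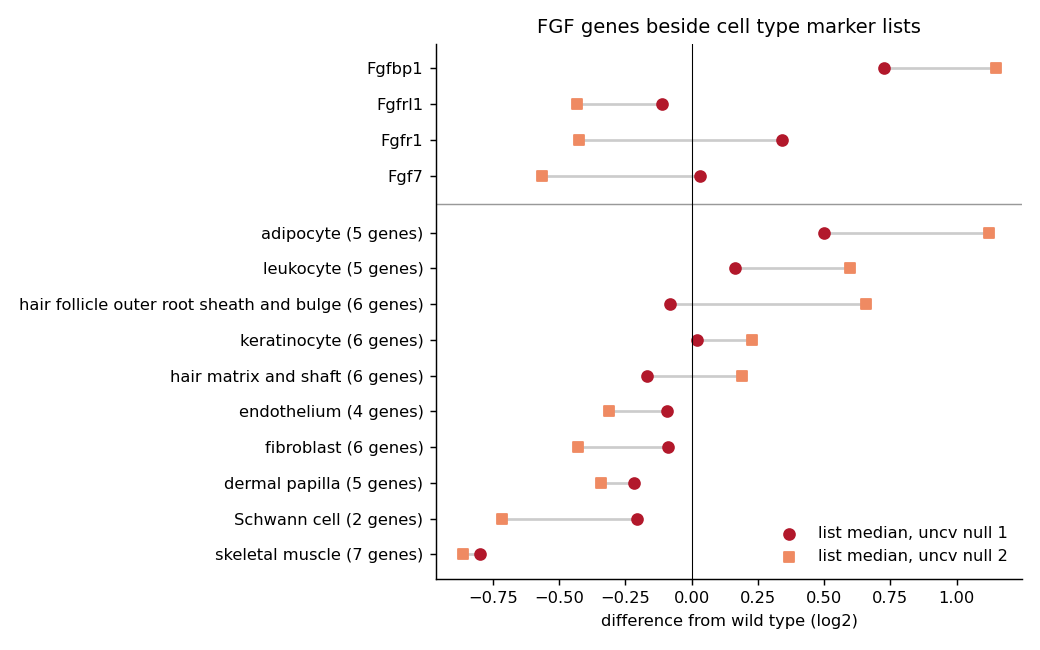
Difference from wild type in log2 units (horizontal) for Fgfbp1, Fgfrl1, Fgfr1 and Fgf7 by their representative probe sets, above the line, and for the median of each cell type marker list, below it, with a circle for uncv null 1 and a square for uncv null 2. In uncv null 2, Fgf7, Fgfr1 and Fgfrl1 lie close to the fibroblast median of -0.43. The other tested probe sets of Fgfr1 and Fgfrl1, not shown, were farther below wild type in that array. Fgfbp1 lies to the right of the keratinocyte median in both arrays.

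The rest of the pathway was read from 5 lists of 83 further genes, of which 44 were measured. Of these, 0 passed the test and 0 passed the 2-fold rule, which took in 0.225% of all tested genes higher and 0.296% lower. On both uncv null arrays 15 were higher and 9 lower than wild type, and 20 were split. Over all tested genes 38.8% were higher and 26.4% lower on both. Of 17 further genes of the FGF family, listed with the ligands though not all are secreted, only 2 passed the filter. Fgf13, an FGF homologue that stays inside the cell, read 6.66 and 6.46 in the uncv null arrays, against 6.99 in wild type, a mean difference of -0.43 ± 0.27. Fgf22, a ligand known from the inner root sheath, read 5.15 in uncv null 1 and 5.92 in uncv null 2, against 5.56 in wild type, with the uncv null animals on either side of it.

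Receptors, co-receptors and matrix partners were split. Of 12 measured genes 4 lay above and 4 below wild type in both arrays, beside 38.8% and 26.4% of all tested genes. The list's median was 0.21 for uncv null 1 and -0.20 for uncv null 2. Syndecans, which are heparan sulphate proteoglycans of the cell surface, lay on both sides of wild type. By its representative, the epithelial Sdc1 read 9.63 and 9.87 in the uncv null arrays, against 9.20 in wild type. Sdc4 read 9.89 and 9.53 by its representative, against 9.05. Their mean differences were 0.55 ± 0.27 and 0.66 ± 0.29. Each also had a tested probe set with uncv null 1 below wild type and uncv null 2 above it. For Sdc1, 1448158_at read 7.52 and 8.73, against 7.84 in wild type, and the remaining tested probe sets lay above in both arrays. For Sdc4, 1448793_a_at read 8.00 and 9.04, against 8.56. Sdc2, a syndecan of mesenchymal cells, read 6.11 and 5.77, against 6.51 in wild type, a difference of -0.57 ± 0.28. The glypican Gpc6 read 6.04 in uncv null 1 and 4.92 in uncv null 2, against 6.18 in wild type, so its difference of -0.70 ± 0.48 rested on uncv null 2 and was -0.14 without it.

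The intracellular relay carries the signal from receptor to ERK kinase, and 0 of its genes passed the test. Of 11 measured genes 8 were above in both arrays and 1 below, where all tested genes gave 38.8% and 26.4%, and the list's medians were 0.14 and 0.17. The docking protein Gab1 was at 0.45 ± 0.28, the phospholipase Plcg1 at 0.31 ± 0.26, the exchange factor Sos1 at 0.27 ± 0.26 and the kinase Braf at 0.25 ± 0.28. The list's position depended on the probe sets. Its median of mean differences was 0.17 by representatives, beside 0.036 over all tested genes by theirs. Averaging all probe sets of each gene gave a list median of 0.040. Averaging came before the filter, and the median of all tested genes under it is not given here.

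Feedback inhibitors and ETS factors are transcribed in response to FGF signalling through ERK and to other ERK-activating receptors. Of 9 measured genes 3 lay above and 1 below wild type in both arrays, beside 38.8% and 26.4% of all tested genes. The list's medians were 0.12 in uncv null 1 and -0.12 in uncv null 2. Etv4, an ETS transcription factor, read 5.90 and 6.22 in the uncv null arrays, against 5.23 in wild type. Both uncv null values were higher, by 0.68 and 0.99, and the mean difference was 0.83 ± 0.28 (1.78-fold; limma adjusted p = 0.9996). Its relative Etv5 was at 0.21 ± 0.26. The ERK phosphatase Dusp6 read 7.93 in uncv null 1 and 8.72 in uncv null 2, against 8.06 in wild type, so only uncv null 2 was above. The Ras-ERK inhibitor Spred1 lay at -0.25 ± 0.26 by its representative and at 0.24 ± 0.26 by 1423161_s_at, so its side depended on the probe set. The feedback genes therefore had no shared direction in these arrays.

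Of the enzymes that build and edit heparan sulphate 0 passed the test. Of 10 measured genes 0 lay above and 2 below wild type in both arrays, beside 38.8% and 26.4% of all tested genes. The list's medians were 0.032 and -0.13. Sulf1, an extracellular sulphatase, read 6.71 in uncv null 1 and 5.50 in uncv null 2, against 6.81 in wild type, a difference of -0.71 ± 0.51 that was -0.11 without uncv null 2. The sulphotransferase Hs6st2 read 4.89 and 4.96 in the uncv null arrays, against 5.27 in wild type, a difference of -0.34 ± 0.26. The epimerase Glce and the chain-initiating enzyme Extl3 were at 0.073 ± 0.32 and 0.065 ± 0.30.

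**Figure D4:**
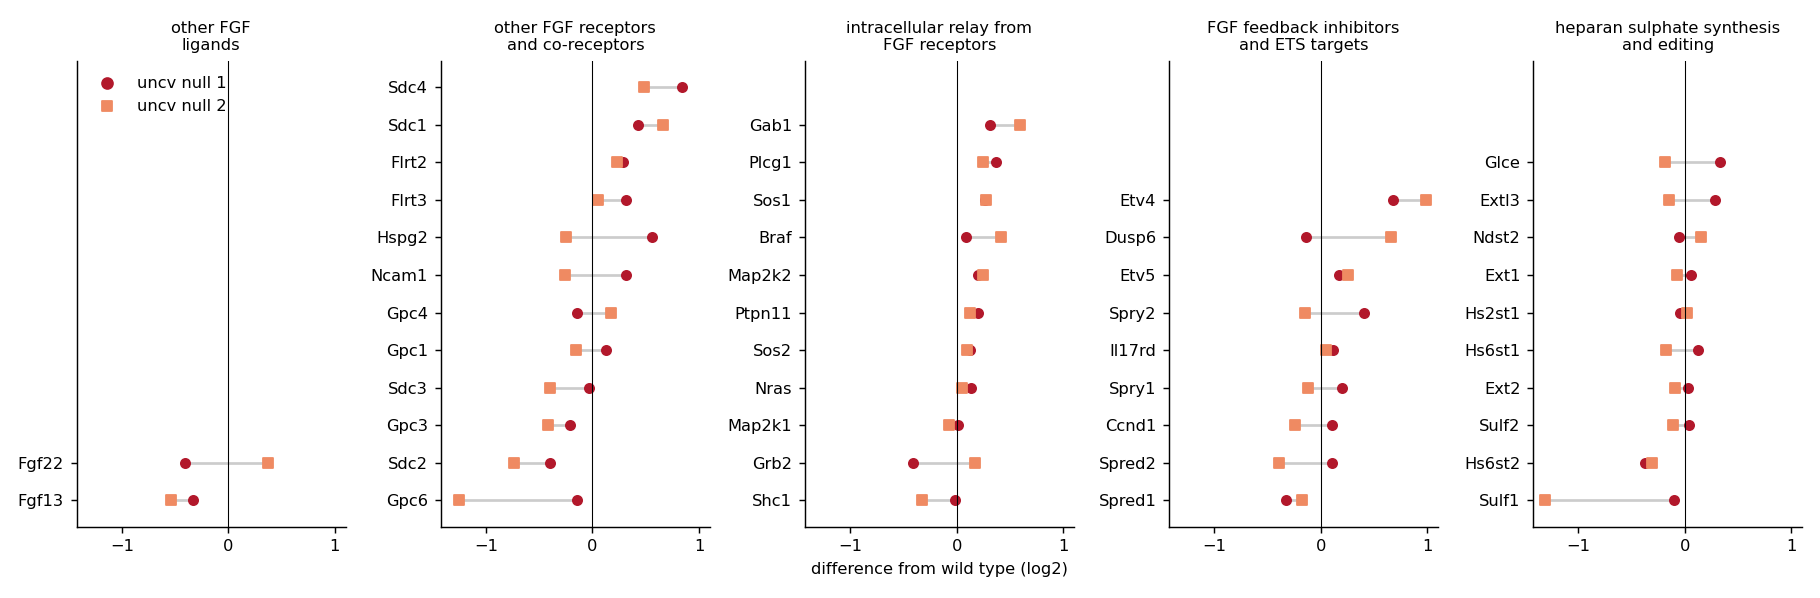
Difference from wild type in log2 units (horizontal) for each measured gene of the 5 pathway lists, with a circle for uncv null 1 and a square for uncv null 2. Each gene is shown by its representative probe set. Etv4, Sdc1 and Sdc4 lie to the right in both arrays, while Gpc6 and Sulf1 lie far to the left in uncv null 2 only.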

How the data were processed

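Total RNA of 3 dorsal skin samples was measured on 1 single-colour array each. The authors deposited log2 RMA values, as named in the submitters' processing notes. The RMA software and its background model were not given in the sources used here. Differences of dim probe sets depend on both. RMA equalises the distributions of the arrays, which hides any change shared by all transcripts. The values ran from 1.96 to 13.1. No scanner files were used here, and the number of arrays limits the precision.

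Groups came from the sample labels. The 64 control probe sets were left out of tests. Genes were named through the platform annotation, and Entrez identifiers of all 10 members matched RefSeq. Differences, uncv null minus wild type, were tested under R 4.3.3 by limma 3.58.1 (lmFit, eBayes, Benjamini-Hochberg adjustment over 13559 probe sets with a mean of at least 5, threshold 0.05). The fit has 1 residual and 4.75 prior degrees of freedom, and assumes that wild type varies like uncv null. The labels do not say more on replicates than that the uncv null samples are separate mice. The fit was tested on simulated data.

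Members and lists were chosen with earlier results of these data known. All members were named, with the 4 pathway genes of each list and the 2 markers of each cell type farthest from wild type by mean difference. Alternatives covered the filter, the normalization, the choice of probe set, the variance model, a 1.5-fold rule, and leaving out each uncv null array.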

Additional observations from a re-analysis of the deposited data

How the results depend on the processing

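Limma called 0 of the measured FGF genes with no filter, a minimum mean of 7, repeated quantile normalization, median centring, intensity trend, robust fit and mean of probe sets, and 0 probe sets in all under the same alternatives other than the last, where these were not counted. The sign of Fgfbp1 and of Fgfrl1 held under each alternative that gave them a value, and Fgfbp1 ranged from 0.73 to 1.15 on leaving out 1 uncv null array. The differences of the other 4 genes had no settled sign. On leaving out 1 uncv null array, Fgf7 ran from -0.56 to 0.030, Fgfr1 from -0.42 to 0.34, Fgfr2 from -0.052 to 0.093 and Fgfr3 from -0.036 to 0.00090. Fgfr2 was at -0.029 and Fgfr3 at -0.18 with the mean of probe sets, and Fgfr3 was at 0.0067 after median centring.

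The 2-fold rule took in 0 genes higher, the 1.5-fold rule 1, and leaving out 1 array gave 0 to 1. With no filter, where dim ligands enter, 2 members lay above wild type in both arrays and 2 below. At a minimum mean of 7, which removes Fgfrl1, 0 lay below. With 1 uncv null array, 1 to 5 members lay above and 1 to 5 below. Among list medians, the further FGF family genes moved to -0.017 with no filter. The relay list was at 0.23 at a minimum mean of 7, 0.040 with the mean of probe sets, and 0.14 to 0.17 on leaving out 1 array. The feedback list ran from -0.12 to 0.12 on leaving out 1 array. The cause of these moves was not tested. No paired analysis was possible because wild type had 1 array and the labels name no pairs. Wild type could not be left out, since it is the only array of its group. Without scanner files, signal over background was not measured, which limits the 4 dim ligands most.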

Other observations

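Some pathway genes below the filter, which were not tested, are given here and were picked with their values in view. Klb, the co-receptor through which Fgf21 acts on fat cells, read 4.04 in uncv null 1 and 4.78 in uncv null 2, against 3.56 in wild type. The adhesion molecule Cdh2 read 3.88 and 3.29 in the uncv null arrays, against 4.41 in wild type. Klb in wild type and Cdh2 in uncv null 2 lay below the highest Y-linked probe set of that array, so their levels there are not above background. The phosphatases Dusp4 and Dusp5 stood above wild type mainly in uncv null 2. Dusp4 read 4.01 and 4.88, against 4.08 in wild type, and Dusp5 read 4.77 and 5.43, against 4.70 in wild type.

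Probe sets of several pathway genes did not give the same picture, and Sdc4, Flrt3 and Ncam1 are given as examples picked with their values in view. The second probe set of Sdc4, 1448793_a_at, read 8.00 in uncv null 1 and 9.04 in uncv null 2, against 8.56 in wild type, while its representative was above wild type in both. Flrt3, a partner of FGF receptors, was at 0.18 ± 0.27 by its representative and at 0.77 ± 0.27 by 1453102_at. Ncam1 was at 0.032 ± 0.33 by its representative and at -0.73 ± 0.28 by 1426865_a_at.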
